A study of Rattus norvegicus with 4 samples.

Results

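The thioredoxin and peroxiredoxin system is described here through 10 rat genes: thioredoxin (Txn1), its reductase (Txnrd1), its inhibitor (Txnip), sulfiredoxin (Srxn1) and the 6 peroxiredoxins (Prdx1 to Prdx6). They were chosen by name, as the array probes whose accession belongs to one of these symbols, and make up 10 of the 16579 genes measured. Thioredoxin is a small protein that reduces disulfides in other proteins and is returned to its active form by thioredoxin reductase, a selenoprotein that takes electrons from NADPH. Peroxiredoxins break down hydrogen peroxide with a reactive cysteine and most of them are then reduced by thioredoxin, while sulfiredoxin rescues peroxiredoxins whose cysteine has been over-oxidised. Macrophages make peroxide during phagocytosis, and several of these genes are known targets of the transcription factor NRF2.

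NR8383 is an established alveolar macrophage line from rat lung lavage, and the messenger RNA of 4 of its cultures, biological replicates per the labels, was hybridised to 1 one-colour array per culture. The cultures, after 20 passages and 48 h of growth in flasks, had received the carboxyl-bearing carbon nanotube material NRCWE042 for 4 h, at a dose of 6.8 cm2 per cm2. The study asked how the nanotubes alter gene expression, but unexposed cultures were not analysed here, so the levels given here cannot be read as a response to exposure. All values describe the 1 exposed group and the spread among its 4 replicates, and no test between conditions was made.

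The 4 arrays shared 1 slide and 1 scan, and each held 58717 sample spots, of which 40.9% to 47.4% were well above background. The 75th percentile of the signal, relative to replicate 1, was 0.03 log2 on replicate 2, -0.38 on replicate 3 and -1.38 on replicate 4, so replicate 4 was the dimmest array. The added spike-in RNAs did not follow it, at -0.09, 0.20 and -0.10 log2 relative to replicate 1. On replicate 3, a central area of 10 blocks with 4.56% of the sample spots was dimmer than on the other arrays, with block medians down to -2.86 log2 against them. By the same rule 1 block was dim on replicate 1, 4 on replicate 2 and 4 on replicate 4, with medians down to -0.29, -0.43 and -0.55, and those of replicate 4 lay within the rows and columns that the area of replicate 3 spans. Of 11 measured macrophage markers, 8 were detected, among them Cd68, Csf1r and Mrc1, while Marco and Adgre1 were well above background on 0 arrays and Mertk on 2. The Mertk probe lay in the dim area of replicate 3, and its levels on replicates 1 to 4 were -1.88, -1.05, -3.81 and -3.28 log2. Of 19 markers of other cell types, 6 were detected (31.6%), against 72.7% of the macrophage markers and 44.4% of all measured genes. They were Dcn, Cd3d, Hba-a1 and all 3 endothelium markers (Pecam1, Cdh5 and Vwf). Of the 5 lung epithelium markers, 0 were detected.

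All 10 genes were detected, meaning that a probe was well above background on each of the 4 arrays, against 44.4% of all measured genes. They were read by 11 probes with 39 spots, none of which was saturated or marked as an outlier. Levels are log2 of the processed signal minus the 75th percentile of the array, and a level places a gene on its own arrays only: probes differ in affinity, so the level of one gene is not set against that of another. The median SD over the 4 cultures was 0.18 log2 for the 10 genes, and 0.25 for the 7363 detected genes. Without replicate 4 these medians were 0.11 and 0.20, and with scaling to the added spike-in RNAs 0.54 and 0.58. Of the 10 genes, 1 (Prdx1) had an SD above the median of 0.25, against 50.0% of detected genes by definition. With the 75th percentile, 0 of the 10 had an SD above 0.5, against 11.6%. This count of 0 depended on the processing: with normexp background correction the SD of Prdx1 was 0.615. With spike-in scaling the SDs of the 10 genes ran from 0.44 (Prdx6) to 1.01 (Prdx1). The count above the median was 2 without replicate 1, without replicate 2 or without replicate 3, Prdx1 being joined by Txnip or Prdx3, and it was between 0 and 4 under other settings.

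**Figure D1:**
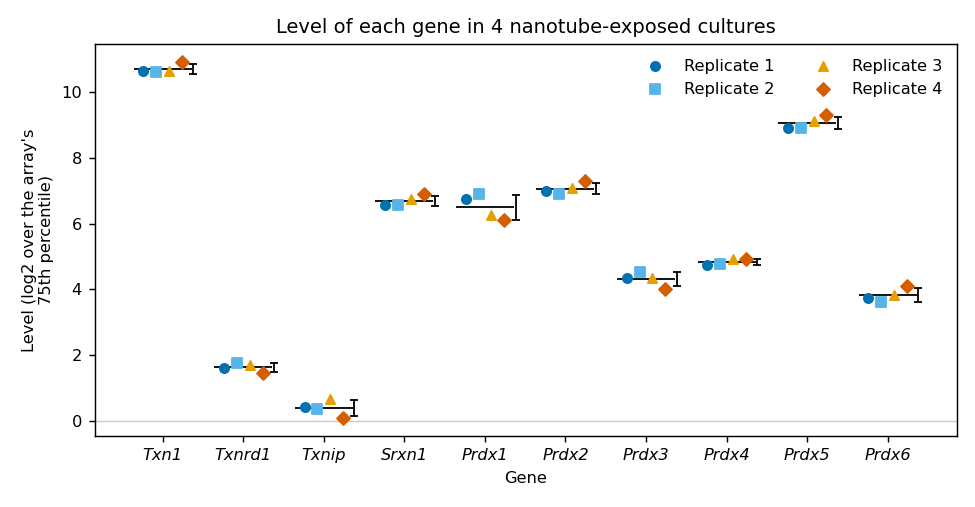
Level of each gene (vertical axis, log2 over the array's 75th percentile) on each of the 4 arrays, by gene. Each point is 1 culture; Prdx1 has the widest spread, with a range of 0.78 log2, and Prdx4 the narrowest, with 0.17.

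Thioredoxin itself, Txn1, had levels of 10.64, 10.63, 10.65 and 10.93 on replicates 1 to 4, a mean of 10.72 ± 0.15 (SD, n = 4). Replicates 1 to 3 lay together and replicate 4 stood above them. Its probe has 10 spots, of which 2 fell in the dim area of replicate 3, where they averaged 10.43, against 10.71 for the other 8. Without that area replicate 4 still lay highest, 0.22 log2 above the gene's mean. The position of replicate 4 was not stable to the processing, since its deviation from the mean was -0.27 log2 after normexp background correction and -0.23 after quantile normalization.

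Thioredoxin reductase, Txnrd1, which regenerates thioredoxin in the cytosol, had levels of 1.60, 1.76, 1.69 and 1.46 with its brighter probe, a mean of 1.63 ± 0.13 (SD, n = 4). Its other probe gave 0.68, 0.40, 0.86 and 0.44, a mean of 0.59 ± 0.22 (SD, n = 4). Both probes were well above background on 4 arrays. They placed the cultures in different orders: replicate 2 was highest by the first probe and lowest by the second.

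Txnip binds reduced thioredoxin and blocks it, and its gene is switched on by glucose through the factors Mlx and Mlxip. Levels of Txnip were 0.41, 0.36, 0.67 and 0.08, a mean of 0.38 ± 0.24 (SD, n = 4). With this scaling replicate 3 was highest and replicate 4 lowest, a range of 0.59 log2. With normexp correction replicate 1 was highest and with spike-in scaling replicate 2, and replicate 4 stayed lowest in both. The signal on replicate 4 was 51.9, against 169, 168 and 157 on replicates 1 to 3, where the lowest signals well above background were 20.8 on replicate 4 and 21.7, 24.6 and 23.2 on the others.

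Sulfiredoxin, Srxn1, had levels of 6.58, 6.57, 6.75 and 6.91, a mean of 6.70 ± 0.16 (SD, n = 4). Replicates 1 and 2 were the lower pair, and replicate 4 the highest. The fold range over the 4 cultures was 1.26.

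Prdx1 and Prdx2 are the abundant cytosolic peroxiredoxins of the type with a pair of catalytic cysteines. Prdx1 had levels of 6.76, 6.89, 6.25 and 6.12, a mean of 6.51 ± 0.38 (SD, n = 4). Prdx2 had levels of 6.98, 6.91, 7.10 and 7.29, a mean of 7.07 ± 0.17 (SD, n = 4). Prdx1 was high on replicates 1 and 2 with no overlap with replicates 3 and 4, and Prdx2 was low on them with this scaling. The share of all detected genes that separated these pairs of arrays was not counted. The order of Prdx2 reversed with spike-in scaling and was mixed with quantile normalization and normexp correction.

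Prdx3 is the mitochondrial peroxiredoxin and Prdx4 the one of the endoplasmic reticulum. Prdx3 had levels of 4.36, 4.54, 4.35 and 4.01, a mean of 4.31 ± 0.22 (SD, n = 4), with replicate 4 lowest. Prdx4 had levels of 4.75, 4.78, 4.91 and 4.92, a mean of 4.84 ± 0.09 (SD, n = 4), the smallest SD of the 10 genes.

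Prdx5, found in mitochondria, peroxisomes and cytosol, and Prdx6, which has 1 catalytic cysteine and also acts as a phospholipase, completed the family. Prdx5 had levels of 8.91, 8.92, 9.13 and 9.30, a mean of 9.07 ± 0.19 (SD, n = 4). Prdx6 had levels of 3.72, 3.62, 3.84 and 4.11, a mean of 3.82 ± 0.21 (SD, n = 4). Both were lowest on replicates 1 and 2 and highest on replicate 4, as were Srxn1, Prdx2 and Prdx4 with this scaling and not under all others.

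Across the 10 genes, 6 were highest on replicate 4, 3 on replicate 2 and 1 on replicate 3. Of all detected genes, 46.4% were highest on replicate 4, 26.4% on replicate 2, 16.5% on replicate 3 and 10.6% on replicate 1. On replicates 1 to 4, 3, 3, 8 and 6 of the 10 genes lay above their own mean, where 38.7%, 41.9%, 61.9% and 59.6% of all detected genes did. The counts of the 10 genes thus leaned the same way on each array as those of the detected genes as a whole. These signs depended on the scaling: for Srxn1, Prdx2, Prdx4, Prdx5 and Prdx6 the deviation kept its sign under all 6 scalings and corrections on 0 of 4 arrays. For Txn1 it did so on 1, for Txnrd1 on 2, for Txnip and Prdx3 on 3 and for Prdx1 on 4. Spike-in scaling also moved the detected genes as a whole, and under the other 5 the sign held on 2 arrays for Srxn1, Prdx4, Prdx5 and Prdx6, on 1 for Prdx2 and Txn1, on 3 for Txnrd1, Txnip and Prdx3, and on 4 for Prdx1.

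**Figure D2:**
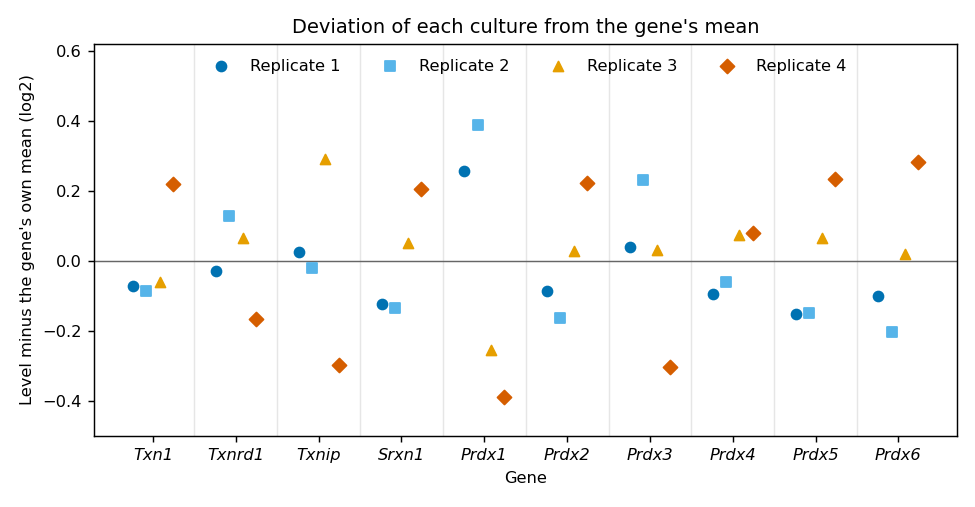
Level minus the gene's own mean (vertical axis, log2) for each gene on each of the 4 arrays. Prdx1 lies above its mean on replicates 1 and 2 and below it on replicates 3 and 4, while Srxn1, Prdx2, Prdx4, Prdx5 and Prdx6 lie the other way round with the scaling shown, their signs changing under others.

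Prdx1 was the gene with the largest spread of the 10. Its range of 0.78 log2 is 1.71-fold, and its SD was at the 73.4th percentile of the detected genes. The 314 genes within 0.5 log2 of its level had a median SD of 0.22. Its probe has 10 spots, none in the dim area, and within an array these differed little, with an SD of 0.033 to 0.050. The lowest spot on replicates 1 and 2 was 6.70, above the highest on replicates 3 and 4, 6.32. Spots are repeats on 1 array and not replicates of the culture, and the share of detected genes that separated these pairs of arrays was not counted. The 10 spots of Prdx5 separated these pairs of arrays too, the other way and narrowly: their highest on replicates 1 and 2 was 9.02, and their lowest on replicates 3 and 4 was 9.03. Replicates 3 and 4, where Prdx1 was low, were also the dimmer arrays, at -0.38 and -1.38 log2 against replicate 1, and the part of array brightness in this was not tested.

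**Figure D3:**
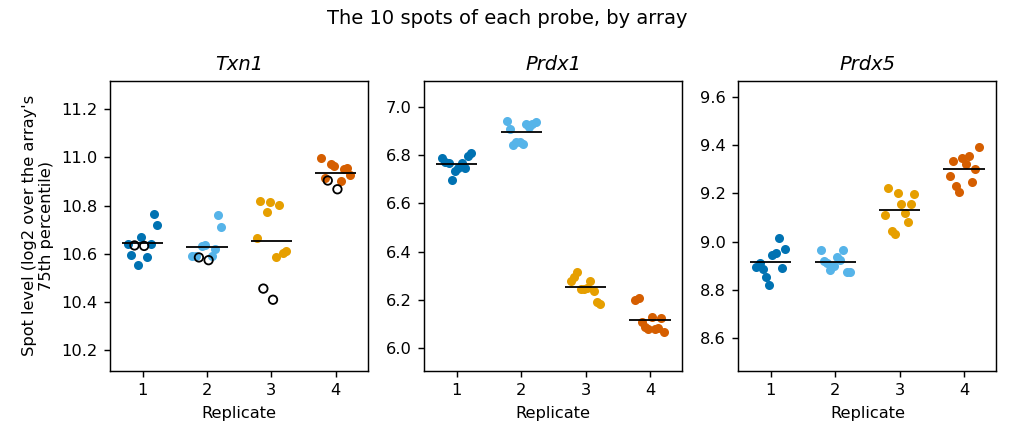
Spot levels (vertical axis, log2 over the array's 75th percentile) for the genes whose probe has 10 spots, by replicate; open circles are spots in the dim area of replicate 3. For Prdx1 the lowest spot on replicates 1 and 2 (6.70) lies above the highest on replicates 3 and 4 (6.32); for Prdx5 the highest on replicates 1 and 2 (9.02) lies just below the lowest on replicates 3 and 4 (9.03).

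The deviation of Prdx1 kept its sign on every array under the 6 scalings. On replicates 1 to 4 it was 0.26, 0.39, -0.25 and -0.39 log2 with the 75th percentile, and 0.69, 0.95, -0.40 and -1.24 with the spike-in RNAs. With the spike-in RNAs the median over detected genes moved too, to 0.37, 0.49, -0.09 and -0.75. Taking off the median deviation of the other 9 genes on the same array left 0.34, 0.47, -0.30 and -0.60 log2 for Prdx1. Subtracting 1 number per array cannot change these values, which compare deviations and not levels.

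**Figure D4:**
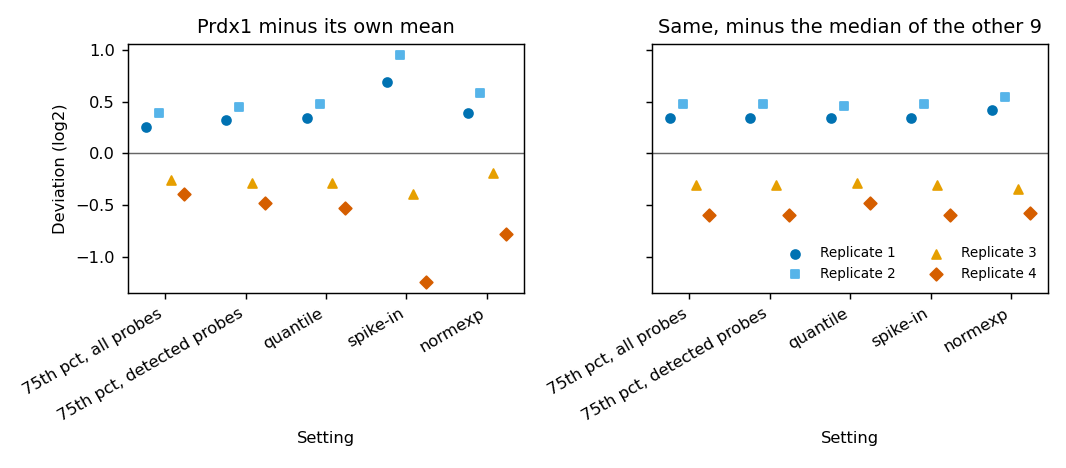
Deviation of Prdx1 from its own mean (vertical axis, log2) on replicates 1 to 4, by scaling or correction. The first panel shows it as it is, and the second after taking off the median deviation of the other 9 genes. The sign on each array is the same in every setting shown. In the second panel this was fixed in advance for settings that subtract 1 number per array, because that subtraction cannot change the values. Quantile normalization and normexp correction could change them, and the sign held in both.

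**Figure D5:**
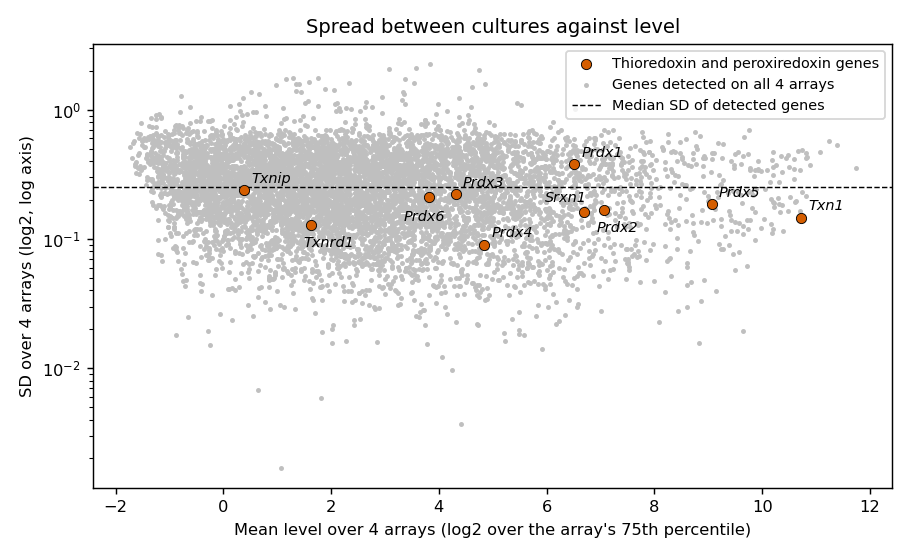
SD over the 4 arrays (vertical axis, log2 units on a log axis) against mean level (horizontal axis, log2 over the array's 75th percentile) for the 10 genes and for the 7363 detected genes; the dashed line is the median SD of the detected genes, 0.25. Of the 10 genes, Prdx1 lies above that line, with an SD of 0.38.

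Differences between 2 genes on the same array are free of any scaling that subtracts 1 number per array. Quantile normalization and normexp correction can change them. Over the 4 arrays, the difference between Prdx1 and another gene ranged over 0.50 to 1.26 log2 in the 9 pairs (median 1.08), and the 36 pairs without Prdx1 over 0.06 to 1.02 (median 0.47). With normexp correction these medians were 1.14 and 0.42, and with quantile normalization 0.95 and 0.42. The widest was Prdx1 against Prdx6, a 2.40-fold change in their ratio, and the ratio of Srxn1 to Prdx1 changed 2.17-fold. The narrowest of the 9 was Prdx1 against Prdx3, at 0.50 log2. The width of the pairs with Prdx1 follows in part from its being the gene with the largest SD. Srxn1, Prdx2, Prdx5 and Prdx6, a group picked after their values were seen, kept their differences within 0.15 log2 (1.11-fold) in all 6 pairs. Prdx4, which shared their order, was left out of that group, and its differences from the 4 genes ranged over 0.20 to 0.34 log2. With normexp correction the 6 pairs reached 0.28 log2, and with quantile normalization 0.40, so the closeness depended on the processing.

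The promoters of Srxn1 and Prdx1 are shown because both hold the letters TGAGTCA. The ratio of these genes differed 2.17-fold between arrays, less than those of Prdx1 to Prdx2, Prdx5 and Prdx6 (2.24, 2.24 and 2.40-fold). Whether the letters bear on any of these ratios was not tested. Each runs from 250 bases before to 50 bases after the gene's start, from RefSeq on assembly GRCr8, at chr3:161064562-161064861 (plus strand) for Srxn1 and chr5:135383656-135383955 (plus strand) for Prdx1. Capitals mark TGAGTCA, or its reverse complement TGACTCA.
Srxn1: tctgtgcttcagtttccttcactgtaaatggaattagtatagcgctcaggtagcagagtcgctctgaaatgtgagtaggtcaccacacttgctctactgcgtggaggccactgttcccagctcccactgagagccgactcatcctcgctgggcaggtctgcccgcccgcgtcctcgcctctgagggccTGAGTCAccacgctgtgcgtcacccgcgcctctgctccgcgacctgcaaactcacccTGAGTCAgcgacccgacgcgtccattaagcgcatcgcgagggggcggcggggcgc
Prdx1: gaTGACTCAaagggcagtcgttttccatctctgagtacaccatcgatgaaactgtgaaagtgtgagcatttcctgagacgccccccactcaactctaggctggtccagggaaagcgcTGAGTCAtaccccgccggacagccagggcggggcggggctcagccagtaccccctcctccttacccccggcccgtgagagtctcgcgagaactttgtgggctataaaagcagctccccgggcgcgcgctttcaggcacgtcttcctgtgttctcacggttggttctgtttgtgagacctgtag
In Srxn1 the letters lie at bases 189 to 195 and 246 to 252 of the window, and in Prdx1 at bases 118 to 124 and, on the other strand, at 3 to 9.

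RefSeq promoters were found for 8 of the 10 genes, in 9 windows, since Txnrd1 has 2, of which 1 holds none of the motifs searched. Genes are counted below and windows in the background, so Txnrd1 had more than 1 chance of a match. TGAGTCA, the motif of AP-1 factors, was in the windows of 2 of these 8, against 4.64% of 33365 windows. TGACNNNGC, a core form of the antioxidant response element that NRF2 binds, was in 4 of 8 (Txnrd1, Prdx1, Prdx4 and Prdx5), against 12.1%. Other forms of this element were not searched, so a promoter without TGACNNNGC may still hold one. In Prdx1 its match at bases 116 to 124 overlaps a TGAGTCA. Of the other motifs, CACGTG was in 1 of 8, against 6.43%, CCAAT in 2, against 37.5%, and GGGCGG in 8 (8 of the 9 windows), against 33.1%. All 5 motifs were searched on both strands, and the windows printed were picked after the matches and the values were seen. A match is a run of letters and says nothing on binding in these cells.

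The 5 detected genes with profiles nearest to that of Prdx1 over the 4 arrays, each centred on its mean, were Tram1, Cct6a, Mms22l, Tbpl1 and Abhd5, with a root mean square difference of 0.011 to 0.017 log2. Tram1 is a subunit of the protein translocation site of the endoplasmic reticulum and Cct6a of a cytosolic chaperonin. In all, 314 of 7353 other detected genes (4.27%) lay within 0.1 log2, so a profile of this shape was not particular to Prdx1. The same share was not counted for the profiles of other genes. With 4 arrays, a near profile can also belong to an unrelated gene.

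Of 54 related redox genes listed by role, 48 were measured and 38 of these were detected (79.2%), against 44.4% of all measured genes. Among thioredoxins and reductases 10 of 11 were detected, the exception being Txnrd3, a reductase best known from testis, which was well above background on 1 array. The membrane-bound thioredoxin relatives Tmx1, Tmx2 and Tmx4 had mean levels of 3.13 ± 0.41, 0.55 ± 0.34 and 2.58 ± 0.23 (SD, n = 4). All 3 measured glutaredoxins, which use glutathione for the same kind of reaction, were detected: Glrx at 4.49 ± 0.35, Glrx3 at 6.20 ± 0.29 and Glrx5 at 4.82 ± 0.25. So were all 3 methionine sulfoxide reductases, which thioredoxin recycles: Msra at 0.51 ± 0.12, Msrb1 at 5.75 ± 0.27 and Msrb2 at 3.79 ± 0.11.

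Among sestrins and thioredoxin partners 4 of 7 were detected. Apex1, a DNA repair and redox factor, had a mean level of 5.96 ± 0.08 (SD, n = 4), and the ribonucleotide reductase subunits Rrm1 and Rrm2 had means of 4.78 ± 0.29 and 6.33 ± 0.06. Map3k5, the stress kinase that thioredoxin restrains, and Rrm2b were well above background on 0 arrays, and Sesn3 on 3. Of the 6 genes for selenoprotein synthesis 5 were detected, among them Eefsec, the elongation factor for selenocysteine, at 3.00 ± 0.45, Secisbp2 at 2.89 ± 0.09 and Sephs2 at 3.09 ± 0.27, and Pstk was well above background on 3 arrays. Among relatives and regulators of Txnip 3 of 6 were detected, namely Arrdc1 at 5.88 ± 0.55, Arrdc4 at 0.15 ± 0.13 and Mlx at 2.80 ± 0.03, while Arrdc2, Arrdc3 and Mlxipl were well above background on 0 arrays.

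Of the 6 genes listed for NRF2 and its regulators, 5 were detected. Nfe2l2, the gene of NRF2 itself, was among the 5 at 4.62 ± 0.09 (SD, n = 4), and is named here after its values were seen. Keap1, which marks NRF2 for destruction, had a mean level of 0.57 ± 0.20 (SD, n = 4), and Maff, a small Maf partner, had 3.29 ± 0.44. Bach1, a repressor that competes for the same sites, had -0.26 ± 0.14. Mafk was well above background on 3 arrays, and its probe lay in the dim area of replicate 3, where its level was -2.66, against -0.68, -0.42 and 0.03 on replicates 1, 2 and 4. Of the 6 disulfide oxidoreductases of the endoplasmic reticulum 5 were detected, including Ero1a at 2.62 ± 0.07, P4hb at 5.63 ± 0.06 and Pdia3 at 2.92 ± 0.24, and Ero1b was well above background on 0 arrays. Over the 38 detected related genes the median SD was 0.23 log2, and 16 had an SD above the median of all detected genes.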

How the data were processed

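The authors deposited 1 scanner table per array. Its values are linear spot intensities of 1 dye, extracted with Agilent Feature Extraction 11.0.1.1 per the file headers and the submitters' processing notes. The processed signal has the background removed within an array, per the file headers, and no scaling between arrays. Here its log2 was averaged over a probe's spots, leaving out those marked as outliers, and the array's own 75th percentile (45598 sample probes) was taken off. RefSeq accessions gave 21109 probes a gene symbol, and the brightest probe stood for a gene with several. A gene counted as detected with a probe well above background on each of the 4 arrays, in more than 50% of the spots used. The array headers name an older build than GRCr8, so promoter positions come from RefSeq alone.

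The 10 genes, the lists of related genes and markers, and the comparisons were chosen with earlier results of these data known. All 10 genes are named; of the related genes, those detected on fewer than 4 arrays and, per role, up to 3 detected ones in alphabetical order; and for the gene with the largest SD, its 5 nearest profiles. The markers named were picked after their detection was seen, and other genes named outside the rule are said to have been picked after their values were seen, as was the dim area of replicate 3, defined as blocks of 24 by 12 spots whose median lay under -0.25 log2 against the other arrays. With 1 group there is no test of a condition, and 4 arrays and the signal over background limit precision. Steps were tested on simulated arrays. There, the first criterion for nearest profiles (all planted genes among the nearest 5) was not met, because unrelated genes lay as near, and a wider one, the nearest 10, was then used. Alternatives were other scalings (probes well above background, quantile, spike-in, all spots), normexp correction with offset 50, mean over probes, other detection rules, outlier spots kept, no filter, each replicate left out and the dim area left out. Python 3.11.15, numpy 2.4.6, pandas 2.3.3, matplotlib 3.10.9, R 4.3.3 and limma 3.58.1 were used.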

Additional observations from a re-analysis of the deposited data

Results flagged for a closer look

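In Txn1, replicate 4 lay apart from the other cultures: 10.93, against 10.63 to 10.65, a gap of 0.917 of the whole range. In Bach1, replicate 1 lay apart at -0.48, against -0.21 to -0.17, a gap of 0.878 of the range. Among 50 genes and probes set against Dixon's 95% limit for 4 samples, 2 passed, and chance passes about 1 in 20 such groups. Replicate 4 was the dimmest array, at -1.38 log2 in its 75th percentile against replicate 1, and its part in the Txn1 value was not tested. The deviation of Txn1 on replicate 4 was 0.22 log2 as reported, and -0.27 with normexp correction.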

How the results depend on the processing

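All 10 genes were detected in every setting run. The number with an SD above the median of detected genes was 1 as reported. It was 3 with the 75th percentile over probes well above background, 2 with quantile normalization, 4 with spike-in scaling, 4 with normexp correction and 0 with no filter on dim probes, which compares the 10 genes with many dim ones. With the 75th percentile over spots, a setting chosen after seeing the data, it was 3. Leaving out each replicate in turn gave 1 to 2. The causes of these differences between settings were not tested. Prdx1 had the largest SD of the 10 genes in every setting run. Of the related genes, 36 to 44 were detected, against 38 as reported. Leaving out the dim area, also chosen after seeing the data, kept the count at 1. No paired analysis was possible because the samples form 1 group.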
